A study of Mus musculus with 2 samples.

Results

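Periportal hepatocytes, the liver parenchymal cells nearest to the portal tracts, were taken from a single-cell RNA sequencing series of mouse liver and numbered 955 of the 13240 deposited cell barcodes. They were chosen by measured values. A barcode counted as a hepatocyte with at least 10000 unique molecular identifiers (UMIs, each standing for 1 captured RNA molecule), at most 30% of them mitochondrial, and at least 2% of them from 5 hepatocyte genes (Alb, Apoa1, Apoa2, Ttr and Serpina1c). A score then divided the UMIs of the pericentral genes Cyp2e1 and Cyp1a2 by the UMIs of those 2 genes plus the periportal genes Cyp2f2 and Hal. Hepatocytes of each library were ranked by the score and cut into 3 parts of about equal size, and the lowest part is the periportal one. It held 619 of 1839 hepatocytes on chow and 336 of 934 on the NASH diet. Cells tied at the cut were all taken in. Mid-score cells numbered 607 on chow and 287 on the NASH diet, and high-score cells, at the pericentral end, numbered 613 and 311.

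The study compared liver cells of C57BL/6 mice kept for 6.5 weeks on chow or on a diet rich in fructose, fat and cholesterol, named the NASH diet after non-alcoholic steatohepatitis. Collagenase digestion and Percoll centrifugation gave a mix of non-parenchymal cells and of hepatocytes over a span of densities, and 3' libraries were made with 10x Genomics droplets. Each diet is 1 library, so diet and library cannot be told apart and no test across samples was possible. Every interval given covers only counting error or, for shares of cells, the sampling of cells within 1 library. The labels do not say how many mice a library was made from.

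Blood enters the liver lobule at the portal tract and leaves at the central vein, so hepatocytes along this path see different levels of oxygen, nutrients and hormones. Periportal hepatocytes are known for gluconeogenesis, urea synthesis from ammonia, breakdown of amino acids and secretion of plasma proteins, while pericentral hepatocytes carry glutamine synthesis, bile acid synthesis and much of the cytochrome P450 metabolism of foreign compounds. Wnt signals from the central vein maintain the pericentral programme.

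The upstream sequences of 4 genes that the results below turn on are shown first. Hsd17b13, a lipid droplet protein, stands for the periportal pattern, Hmgcs1, an early enzyme of cholesterol synthesis, for the sterol genes, and Saa1 and Saa2, the serum amyloid A pair, for the acute phase genes. Each is the 250 bases before the RefSeq start site on build GRCm38.p6, 5′ to 3′ on the gene's strand. The windows are chr5:103977389-103977638 on the minus strand for Hsd17b13, chr13:119690101-119690350 on the plus strand for Hmgcs1, chr7:46742981-46743230 on the minus strand for Saa1 and chr7:46751583-46751832 on the plus strand for Saa2.
Hsd17b13: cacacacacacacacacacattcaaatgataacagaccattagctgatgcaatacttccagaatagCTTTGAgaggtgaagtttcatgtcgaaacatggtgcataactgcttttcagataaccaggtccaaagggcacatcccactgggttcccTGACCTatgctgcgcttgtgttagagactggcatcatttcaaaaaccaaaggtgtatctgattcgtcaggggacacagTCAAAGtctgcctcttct
Hmgcs1: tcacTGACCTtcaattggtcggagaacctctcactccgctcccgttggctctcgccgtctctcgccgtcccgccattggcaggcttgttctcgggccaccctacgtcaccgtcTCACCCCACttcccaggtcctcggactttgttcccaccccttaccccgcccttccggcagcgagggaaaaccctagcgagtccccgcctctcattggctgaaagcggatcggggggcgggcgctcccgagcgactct
Saa1: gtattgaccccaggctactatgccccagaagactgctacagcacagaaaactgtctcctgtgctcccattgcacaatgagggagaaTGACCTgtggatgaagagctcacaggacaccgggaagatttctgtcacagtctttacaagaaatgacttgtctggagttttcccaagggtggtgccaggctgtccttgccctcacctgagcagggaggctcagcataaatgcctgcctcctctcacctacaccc
Saa2: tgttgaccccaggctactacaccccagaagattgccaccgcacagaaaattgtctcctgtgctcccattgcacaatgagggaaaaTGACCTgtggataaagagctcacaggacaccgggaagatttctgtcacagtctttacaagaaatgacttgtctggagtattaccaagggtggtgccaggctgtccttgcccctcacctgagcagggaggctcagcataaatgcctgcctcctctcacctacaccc
Capitals mark matches, on either strand, to 5 letter patterns that were searched: TCACNCCAC (sterol element), AGGTCA (a repeat unit of many nuclear receptor sites), CTTTGA (core of TCF sites), TATAAA and GTTAAT (core of HNF1 sites). Hmgcs1 held the sterol element 137 bases before the start, a pattern found in 1.05% of 32851 mouse promoter windows of this length. It was the only 1 of 18 matched genes of the cholesterol list with that pattern, which Ctsc, Spp1, Ehhadh and the acute phase genes Saa3 and Itih3 (2 of 24 matched genes) held too. Hsd17b13 held CTTTGA at 184 and 18 bases and AGGTCA at 96 bases before the start, patterns found in 13.8% and 14.0% of windows. Saa1 and Saa2 held AGGTCA at 164 and 165 bases, and their windows had 197 of 249 bases in common when aligned without gaps. TATAAA and GTTAAT, found in 12.4% and 6.43% of windows, had no match in these 4. A match is a description of letters and shows no binding. Of the 30 genes whose promoters were looked for, 22 were in the RefSeq table.

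Genes outside the rule went with the label when periportal cells were set against high-score cells. The gene lists were chosen with earlier results of these data known, so this describes the cells and tests nothing. It does not set them apart from mid-score cells, which were close to them, as given below. Sds, serine dehydratase and the marker gene not used by the score, stood at 279.5 CPM (the gene's UMIs scaled to equal totals, the usual cpm unit) in periportal and 3.05 CPM in high-score cells on chow, and at 509.9 and 13.4 CPM on the NASH diet. Of 20 periportal genes outside the rule, 12 on chow and 17 on the NASH diet were at least 2 times higher in periportal than in high-score cells (log2 ratio of 1 or more, with 5 CPM added to both levels), and none was lower by that much. Glul, glutamine synthetase of the pericentral zone, stood at 33.8 CPM in periportal against 665 CPM in high-score cells on chow and at 20.3 against 2449.8 CPM on the NASH diet. Among the rule's own genes, given as a description, Cyp2f2 stood at 1421 CPM on chow and 1923 CPM on the NASH diet and Hal at 325 and 380.0 CPM in periportal cells. Cyp2e1 had 63 and 0 UMIs there and Cyp1a2 24 and 0.

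The score was close to all or nothing, as its histogram shows. Of the hepatocytes, 532 on chow (28.9%) and 336 on the NASH diet (36.0%) had a score of exactly 0. On chow the cut fell at 0.0182, where 9 cells had 1 pericentral UMI of 55, and the next 5 cells outside had 1 of 54. On the NASH diet all 336 members scored 0 and the next cell outside had 1 pericentral UMI of 181. The high-score part began at 0.888 on chow and 0.618 on the NASH diet, so it took in more intermediate cells on the NASH diet. With the chow cuts in both libraries it held 278 cells on the NASH diet and the periportal part held 393.

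**Figure D1:**
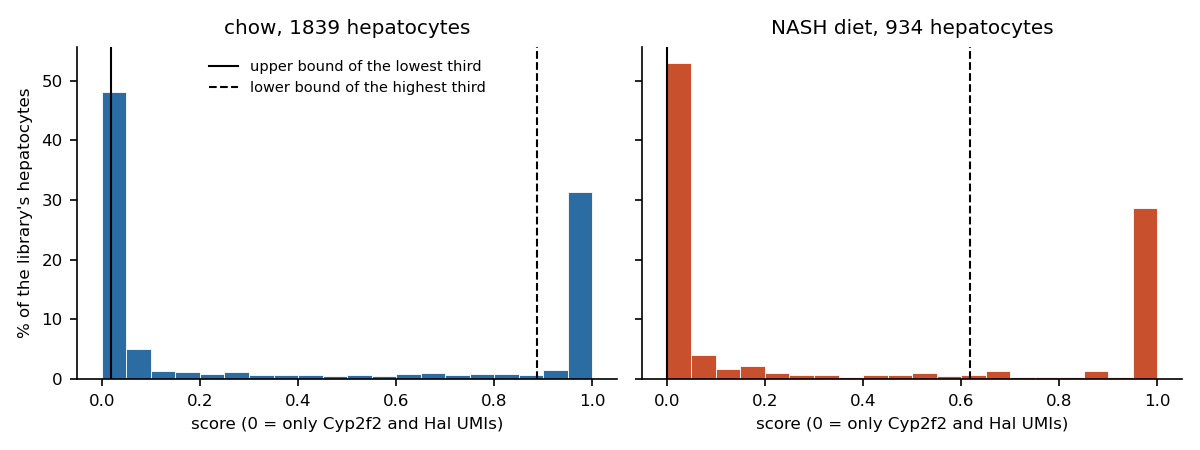
Histogram of the zone score (x axis) over hepatocytes of each library (y axis, % of the library's hepatocytes, bins of 0.05), with the solid line at the upper bound of the periportal part and the dashed line at the lower bound of the high-score part. Most cells sit at either end, with 48.1% of chow hepatocytes in the bin from 0 to 0.05.

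The libraries differed in depth and in mitochondrial share. Periportal cells held 16917238 UMIs on chow and 6781736 on the NASH diet, with a median of 27316 and 19719 UMIs and 3959 and 3342 genes per cell. The median mitochondrial share was 17.7% on chow and 24.4% on the NASH diet. Malat1, a nuclear RNA, stood at 1191 and 1092 CPM. Markers of other cell types were near 0: the 8 endothelial markers summed to 3.43 and 2.65 CPM, the 10 Kupffer cell markers to 3.66 and 0.295 CPM with 8 of 10 at 0 on the NASH diet, the 10 markers of other leukocytes to 1.95 and 1.18 CPM, and the 8 mesenchymal markers to 0.236 and 1.77 CPM. The cholangiocyte list summed to 457 and 284 CPM from Spp1, Tm4sf4 and Sox9, while Epcam, Krt19, Krt7 and Cd24a were under 5 CPM. The erythroid list summed to 43.9 and 59.0 CPM, nearly all Alas2. The libraries had 69 barcodes in common, and 5 chow and 4 NASH diet periportal cells carried one of them.

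Comparing periportal with high-score cells, 70 of 6031 genes on chow (1.16%) and 85 of 6167 on the NASH diet (1.38%) were higher by at least 1 on the log2 scale, and 125 (2.07%) and 185 (3%) were lower. The genes highest in periportal over high-score cells across both libraries were Sds, Ctsc (cathepsin C, a lysosomal protease), Aldh1b1 (a mitochondrial aldehyde dehydrogenase), Hsd17b13, Spp1 (osteopontin), Hsd17b6 (a steroid and retinol dehydrogenase), Cdh1 (E-cadherin), Gls2 (glutaminase), Etnppl (ethanolamine phosphate lyase) and Fgfr2 (a fibroblast growth factor receptor). Aldh1b1 went from 66.7 CPM in periportal to 0.235 CPM in high-score cells on chow and from 149 to 1.30 CPM on the NASH diet. Cdh1 went from 83.5 to 0.528 CPM and from 42.9 to 0.829 CPM. Gls2 went from 194 to 16.6 CPM and from 265 to 17.2 CPM. Periportal and mid-score cells were close: 19 of 5922 genes on chow (0.321%) and 15 of 5985 on the NASH diet (0.251%) differed by that much in either direction. All these contrasts follow from a ranking of the same cells and are descriptions.

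**Figure D2:**
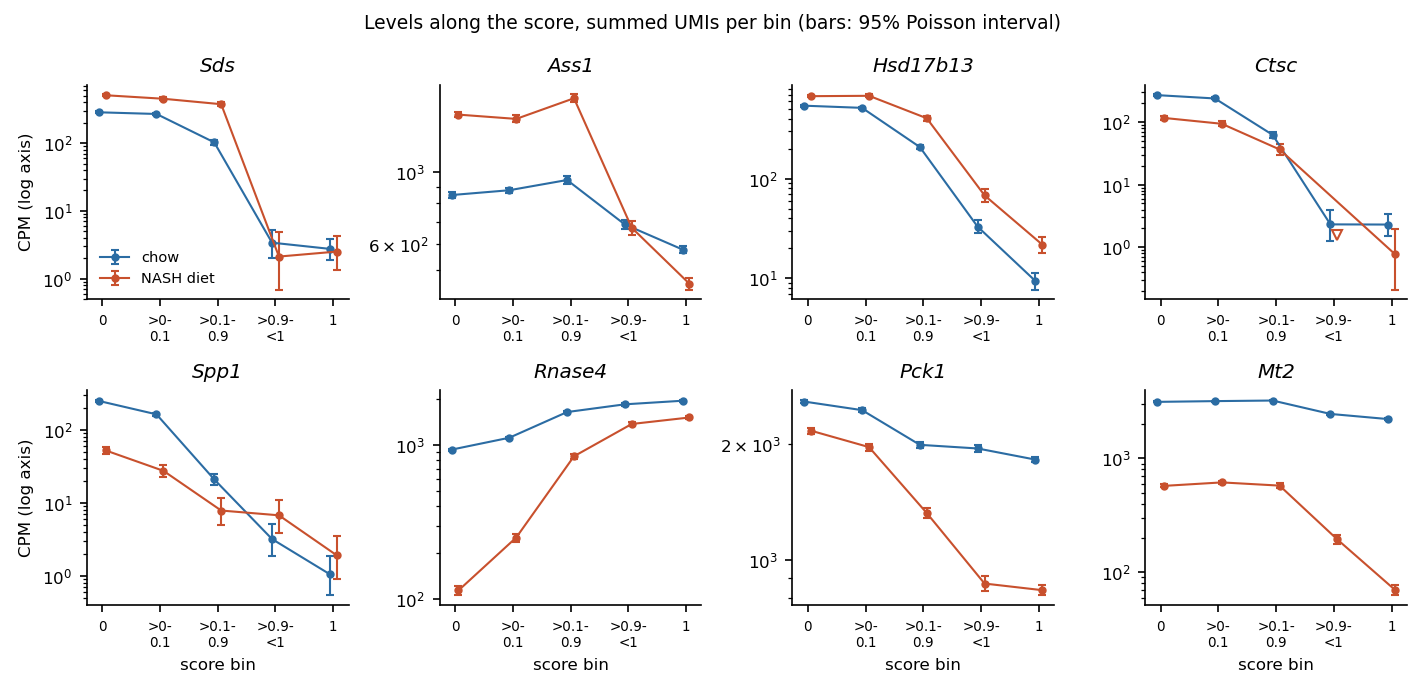
Levels of 8 genes in CPM (y axis, log scale) over 5 bins of the score (x axis, from 0 to 1) on chow (blue) and the NASH diet (red), with UMIs summed per bin, 95% Poisson intervals as bars, and a triangle at the upper limit where no UMI was read. Sds, Ass1 and Hsd17b13 are higher on the NASH diet at the periportal end, Ctsc, Spp1, Rnase4, Pck1 and Mt2 lower, and the Rnase4 lines are far apart at score 0 (934 and 114 CPM) and close at score 1.

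Between diets, periportal cells on the NASH diet showed higher fatty acid oxidation, Scd1 and Apoa4 transcripts and far lower cholesterol synthesis and acute phase transcripts. Of 5987 genes at 10 CPM or more on average, 111 (1.85%) were higher on the NASH diet by at least 1 on the log2 scale and 146 (2.44%) were lower. These 2 shares stand beside every count of list genes past the fold in periportal cells below. With mitochondrial UMIs left out of the totals the split was 160 higher and 137 lower. With cells of at most 20% mitochondrial UMIs, which left 70 NASH diet members, it was 347 and 192, and with 20 CPM added in place of 5 it was 50 and 104. The median log2 ratio over all tested genes was 0.08, and 60.0% of genes were above 0. The mitochondrial share and depth given above moved with the diet, and their part in these counts was not tested.

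**Figure D3:**
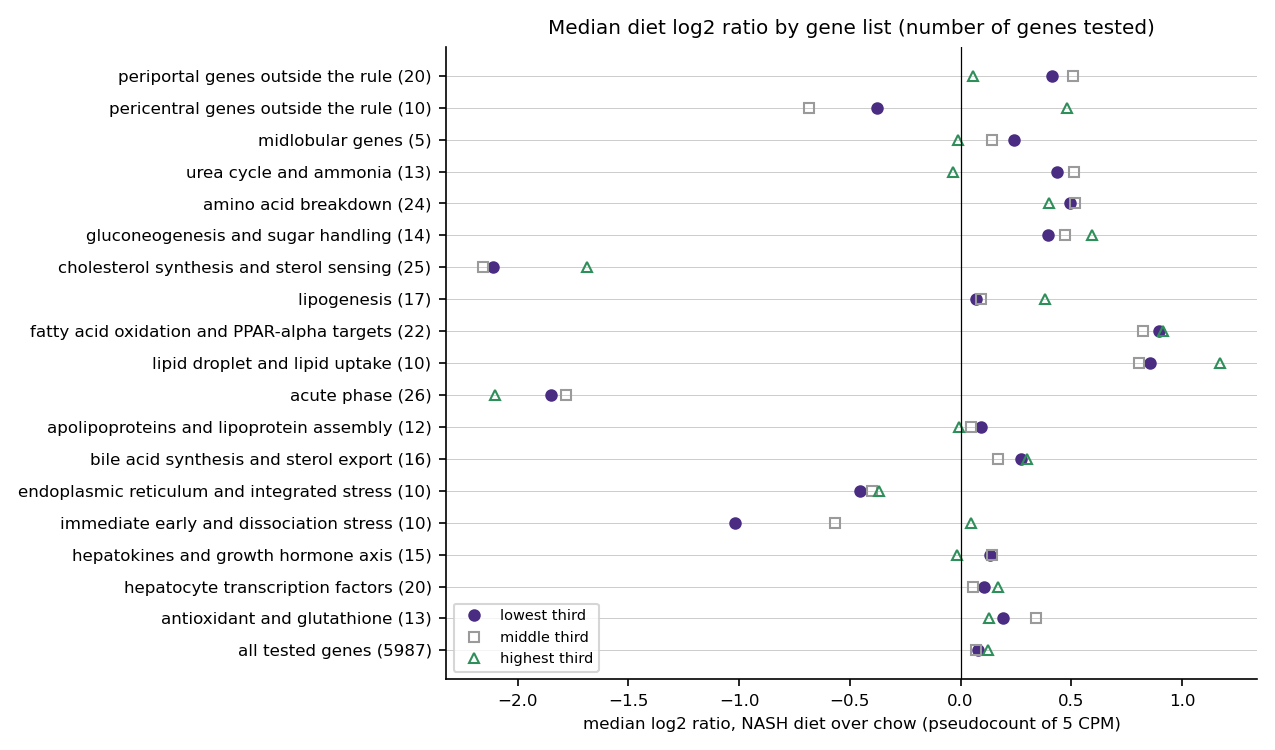
Median log2 ratio of the NASH diet over chow (x axis) for each gene list (y axis, number of genes tested in brackets) in periportal (lowest part of the score, filled circles), mid-score (squares) and high-score cells (triangles). Cholesterol synthesis and acute phase genes lie between -2.16 and -1.68 in all 3 parts, and immediate early genes lie at -1.02 in periportal and 0.05 in high-score cells.

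Among periportal marker genes outside the rule, several were higher on the NASH diet and others lower. The cells were chosen as periportal in each library, so the presence of these genes on both diets follows in part from that choice. Of the 20 genes of that list, 3 were higher by at least 1 and 1 was lower. The 14 above 0 are not far from the 60.0% of all tested genes above 0. The median was 0.41, beside 0.06 for the same genes in high-score cells and 0.08 for all tested genes in periportal cells. That high-score value changed sign with the cells taken, from -0.81 with at most 20% mitochondrial UMIs and -0.11 with the chow cuts to 0.22 without the 5% of cells with most UMIs. With at most 20% mitochondrial UMIs the high-score part began at 0.161 on chow and 0.996 on the NASH diet. The -0.81 therefore sets unlike parts of the score side by side. Hsd17b6 stood at 78.9 CPM (95% Poisson interval 74.7 to 83.2) on chow and 401 CPM (386 to 416) on the NASH diet, a log2 ratio of 2.27. Etnppl went from 33.5 to 111 CPM (1.59) and Aldh1b1 from 66.7 to 149 CPM (1.10). Ctsc was the gene past the fold in the other direction, at 268 CPM on chow and 116 CPM on the NASH diet (-1.17), and Cdh1 was at 83.5 and 42.9 CPM (-0.88). Sds went from 279.5 to 509.9 CPM (0.86), Uroc1 (urocanase of histidine breakdown) from 229.6 to 354 CPM (0.61) and Hsd17b13 from 543 to 674 CPM (0.31). Fbp1, a gluconeogenic phosphatase, was at 624 and 909.9 CPM (0.54). The urea cycle members and Pck1 follow below, and the remaining 6 genes lay between -0.37 (Apof) and 0.43 (Gls2).

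Urea cycle genes were modestly higher in periportal and mid-score cells. None of 13 genes on this list passed the fold in either direction, and 10 were above 0, beside 60.0% of all tested genes. The median log2 ratio was 0.44 in periportal, 0.51 in mid-score and -0.03 in high-score cells. The last value ranged from -0.34 (at most 20% mitochondrial UMIs) to 0.19 (without the 5% of cells with most UMIs), while the periportal one stayed between 0.36 and 0.55. Ass1, argininosuccinate synthase, stood at 859 CPM (845 to 873) on chow and 1490.2 CPM (1461 to 1519.5) on the NASH diet in periportal cells (0.79), and at 629.8 and 615 CPM in high-score cells. Asl, the next enzyme, went from 211 to 347 CPM (0.70) against 132 and 128 CPM in high-score cells. Cps1, which fixes ammonia in the first step, went from 1228 to 1745 CPM (0.50) against 987 and 957 CPM. Otc was at 362 and 532 CPM, and Arg1, which releases urea, at 821 and 789 CPM. The ornithine carrier Slc25a15 and the activator synthase Nags were at 202 and 183 CPM and at 46.5 and 43.2 CPM. Their log2 ratios in high-score cells, near 0 with these cuts, ranged over the other settings from -0.76 to 0.19 for Ass1, from -0.37 to 0.09 for Asl and from -1.40 to 0.19 for Cps1.

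Most amino acid breakdown and sugar handling genes were above 0 as well (19 of 24 and 13 of 14, beside 60.0% of all tested genes). Of 24 amino acid genes, 2 were past the fold upward, none downward, and the median was 0.49, beside 0.40 in high-score cells. Among them was Hpd, of tyrosine breakdown, at 370.2 and 946 CPM (1.34), a gene higher in high-score than in periportal cells in both libraries. Tat, tyrosine aminotransferase, was at 1059.6 and 589 CPM (-0.84) and Sdsl at 30.5 and 26.2 CPM. Of 14 sugar genes, Gys2, liver glycogen synthase, was past the fold at 36.3 and 156 CPM (1.96), and the median was 0.39, below the 0.59 of high-score cells, with 4 of 14 genes above their high-score ratio. Slc37a4, the glucose 6-phosphate carrier, was at 57.0 and 113 CPM (0.93), G6pc at 197 and 216 CPM, and Pck1, which commits carbon to gluconeogenesis, at 2579 and 2159.6 CPM (-0.26). In high-score cells Pck1 was at 1856 and 872 CPM (-1.09).

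Fatty acid oxidation genes that reached the level filter were higher on the NASH diet almost without exception. Of 26 listed oxidation genes and PPAR-alpha targets 22 were tested. Of these 8 were past the fold, all higher, and 21 were above 0, beside 60.0% of all tested genes. The median was 0.89, close to 0.92 in high-score cells. The listed genes under the filter included Fgf21 and Pdk4, which were below 0 in every setting. Cyp4a10, a fatty acid omega-hydroxylase, stood at 11.6 CPM (10.1 to 13.4) on chow and 241 CPM (229.7 to 253) on the NASH diet (3.89). Acaa1b, a peroxisomal thiolase, went from 75.4 to 810.1 CPM (3.34), Cyp4a14 from 11.3 to 125 CPM (3.00), and Ehhadh, the peroxisomal bifunctional enzyme, from 63.4 to 256 CPM (1.93). Ppara itself was at 28.3 and 73.3 CPM (1.24) and the binding protein Fabp1 at 4353 and 9354 CPM (1.10). Cpt1a, which brings fatty acids into mitochondria, was at 179 and 316 CPM (0.80) and did not reach the fold. Cyp4a10, Cyp4a14 and Cyp4a31 are close paralogs whose reads can be hard to assign. Creb3l3 was at 217 and 284 CPM and Angptl4 at 73.8 and 64.4 CPM.

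Lipid storage and lipoprotein genes followed in part. Of 15 listed lipid droplet genes 10 reached the level filter. Of these 4 were past the fold, all higher, and the median was 0.86. Cd36, a fatty acid transporter, had 19 UMIs on chow (1.12 CPM) and 261 on the NASH diet (38.5 CPM), a log2 ratio of 2.83. It reached the filter only through the NASH diet library, so the filter set its direction. G0s2, an inhibitor of lipolysis, was at 99.1 and 287 CPM (1.49), Hsd17b11 at 50.5 and 133 CPM (1.32) and Fitm2 at 18.4 and 44.5 CPM (1.08), while the coat protein Plin2 was at 339 and 411 CPM and Cideb at 89.1 and 104 CPM. Apoa4, an apolipoprotein made by liver and intestine, stood at 241 CPM (233 to 248) on chow and 1726 CPM (1695 to 1758) on the NASH diet, a log2 ratio of 2.82, and was the 1 gene of 12 on the apolipoprotein list past the fold. Apoa4 was higher in periportal than in high-score cells by 2.52 on chow and 2.67 on the NASH diet. Apoe was at 8905 and 14234 CPM (0.68), Apom at 389 and 218 CPM (-0.82) and Lcat at 245 and 197 CPM.

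Lipogenesis genes were split. Of 17 tested genes 1 was higher by the fold and 1 was lower, beside 1.85% and 2.44% of all tested genes. The median was 0.07. Scd1, the stearoyl-CoA desaturase, was at 1226 CPM (1209 to 1243) on chow and 10521 CPM (10444 to 10599) on the NASH diet, with a ratio of 8.58. Lpin1, a phosphatidate phosphatase, was at 138 and 50.3 CPM (-1.37). Fasn, fatty acid synthase, was at 137 and 72.8 CPM (-0.86) in periportal cells and at 76.2 and 90.1 CPM (0.23) in high-score cells. Thrsp, a lipogenic regulator, was at 108 and 197 CPM (0.83) in periportal cells and at 60.8 and 303 CPM (2.23) in high-score cells.

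Cholesterol synthesis transcripts were lower throughout. All 25 tested genes of this list were below 0 and 21 of them were lower by the fold, with a median of -2.11, beside -1.68 in high-score cells. Idi1, isopentenyl diphosphate isomerase, stood at 519.8 CPM on chow and 11.1 CPM on the NASH diet (-5.03), Sqle, squalene epoxidase, at 189 and 1.47 CPM from 10 UMIs (-4.90), and Msmo1, a sterol demethylase, at 413 and 11.9 CPM (-4.62). Sqle reached the filter only through the chow library, so the filter set its direction. Hmgcs1 was at 752 CPM (739 to 765) on chow and 23.0 CPM (19.5 to 26.9) on the NASH diet, a log2 ratio of -4.76, against 596 and 65.7 CPM in high-score cells (-3.09). The regulator Srebf2 was at 37.3 and 13.1 CPM (-1.22). Stard4 at 77.6 and 52.1 CPM and Ebp at 177 and 147 CPM differed least. Bile acid and sterol export genes gave 2 higher and 1 lower of 16 tested, beside 1.85% and 2.44% of all tested genes. Abcg5, a subunit of a sterol export pump, was at 10.8 and 38.0 CPM (1.45), Akr1d1 at 46.8 and 131 CPM (1.39) and Cyp7b1, of the alternative bile acid route, at 334 and 154 CPM (-1.09), with Abca1 at 161 and 134 CPM.

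Acute phase transcripts were also lower throughout, and Saa2 had the lowest log2 ratio of all tested genes with 5 CPM added. With 1 CPM added Saa3 (-6.39) and Sqle (-6.26) were below Saa2 (-6.16). All 26 tested genes of the list were below 0 and 24 were lower by the fold, with a median of -1.85, and the list took 13.5% of periportal UMIs on chow and 3.00% on the NASH diet. Saa2 was at 19349 CPM (19283 to 19415) on chow and 270.3 CPM (258 to 283) on the NASH diet, a log2 ratio of -6.14, and Saa1 from 17691 to 702 CPM (-4.65). Reads of these similar genes may be split between them. Saa3 was at 666 and 6.93 CPM (-5.81), with 34.0% of its NASH diet UMIs in 1 cell. It reached the filter only through the chow library, so the filter set its direction. Orm2, an orosomucoid, was at 621 and 24.2 CPM (-4.42), Lcn2, lipocalin 2, at 2747 and 136 CPM (-4.28) and Apcs, serum amyloid P, at 1323 and 64.4 CPM (-4.26). Other abundant plasma proteins were lower by less, with haptoglobin (Hp) at 11465 and 2708 CPM (-2.08), hemopexin (Hpx) at 17601 and 4299 CPM (-2.03) and Fga of fibrinogen at 9559 and 3409 CPM (-1.49). Saa4, the constitutive member, was at 639 and 537 CPM and Stat3 at 133 and 88.0 CPM. The chow library thus held the higher levels, and the labels name no exposure of its mice other than the diet.

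Smaller lists moved less or in part. Of all tested genes 1.85% were higher by the fold and 2.44% lower, and 1 or 2 genes past it in a short list are no result about that list. Of 15 listed immediate early genes 10 were tested. Of these 5 were lower by the fold, none higher, with a median of -1.02 in periportal and 0.05 in high-score cells. Egr1 was at 209.6 and 49.4 CPM (-1.98), Zfp36 at 225 and 89.7 CPM (-1.28) and Fos at 155 and 67.4 CPM (-1.14) in periportal cells, and in high-score cells Egr1 was at 191 and 122 CPM and Fos at 79.0 and 96.4 CPM. These genes also respond to cell dissociation, and its part here was not tested. Among 10 endoplasmic reticulum stress genes 1 was lower by the fold, Sdf2l1 at 73.3 and 33.8 CPM (-1.01), with Calr at 1267 and 673 CPM (-0.91). Of 15 hepatokine and growth hormone genes 2 were lower, Igfbp1, an insulin-repressed binding protein, at 177 and 7.96 CPM (-3.81) and the stress hormone Gdf15 at 45.3 and 13.1 CPM (-1.47), while Serpina6 was at 20.7 and 45.1 CPM. Igfbp1 reached the filter only through the chow library, so the filter set its direction.

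Of 20 transcription factors 2 were higher and 1 was lower, beside 1.85% and 2.44% of all tested genes. The clock-output factors Dbp at 12.2 and 78.0 CPM (2.27) and Tef at 21.0 and 65.6 CPM (1.44) were higher, and Cebpb at 297 and 137 CPM (-1.09) was lower. Hnf4a, the main hepatocyte regulator, was at 222 and 164 CPM. The labels give no time of day. Gstm1, at 244 and 516 CPM (1.06), was the gene past the fold among 13 antioxidant genes. Of 5 midlobular genes Hamp2 at 3.90 and 25.8 CPM (1.79) and Igfbp2 at 79.7 and 208 CPM (1.33) were higher, and Hamp, hepcidin of iron control, was lower at 3717 and 1742 CPM (-1.09). Hamp2 reached the filter only through the NASH diet library, so the filter set its direction. Of 10 pericentral genes that reached 10 CPM in these cells 2 were lower, Cyp3a11 at 289 and 78.2 CPM (-1.82) and Pon1 at 133 and 62.2 CPM (-1.04), and none was higher. Other genes among the 10 highest log2 ratios were Inmt, an amine methyltransferase, at 14.8 and 271 CPM (3.80), Upp2, uridine phosphorylase, at 36.6 and 232 CPM (2.51), the deubiquitinase Usp2 at 2.07 and 35.1 CPM (2.50) and Car3, a carbonic anhydrase, at 256 and 1301 CPM (2.32). The filter set the direction of Usp2 too, which reached it only through the NASH diet library.

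Diet differences were mostly common to both ends of the lobule. In high-score cells 155 of 6263 genes were higher on the NASH diet (2.47%) and 136 were lower (2.17%). Among 5826 genes tested in both, 68 were higher in both, which is 68% of the 100 periportal ones and 55.3% of the 123 high-score ones. In the other direction 104 were lower in both, 76.5% of 136 and 78.8% of 132, and 0 genes passed the fold in opposite directions.

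The diet log2 ratio differed by 1 or more between periportal and high-score cells for 67 of 6162 genes (1.09%), lower in periportal cells for 57 and higher for 10. These include pericentral genes barely read in periportal cells, where the added 5 CPM holds the ratio near 0, so the split partly restates the choice of cells. Of 5819 genes at 10 CPM or more at both ends, a filter chosen after seeing the data, 44 differed by that much (0.756%), 38 lower and 6 higher in periportal cells. At the low end, Lpl, Cfd and Cyp2a5 were nearly unread in periportal cells (3 and 16, 0 and 2, and 2 and 12 UMIs on chow and the NASH diet), and stood at 1.88 and 131 CPM, 1.94 and 77.4 CPM, and 31.1 and 321 CPM in high-score cells. Rnase4, a secreted ribonuclease at chr14:51091077-51106151 (GRCm38), was at 933 CPM (919 to 948) on chow and 114 CPM (106 to 122) on the NASH diet in periportal cells (-2.98) but at 1904 and 1426 CPM in high-score cells (-0.42). Ang, angiogenin, overlaps it at chr14:51091150-51102009, was named after its values were seen, and stood at 446 and 36.1 CPM (-3.45) in periportal and 1081 and 439.9 CPM (-1.29) in high-score cells. Reads of this overlapping pair may be hard to tell apart. Both are genes of the pericentral side on chow, and their gradient was steeper on the NASH diet, with a log2 ratio of periportal over high-score cells of -1.02 on chow and -3.59 on the NASH diet for Rnase4.

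Spp1, a gene of the portal side, also had a lower diet ratio in periportal cells. It stood at 245 CPM (237 to 252) on chow and 51.9 CPM (46.6 to 57.6) on the NASH diet in periportal cells (-2.13), and at 1.76 and 3.91 CPM in high-score cells. Both high-score levels lie under the added 5 CPM, which holds the ratio there near 0. The Spp1 difference between score parts therefore mostly restates its periportal ratio. The 5 genes with the largest difference the other way were the metallothioneins Mt2 and Mt1, the lysolipid transporter Mfsd2a, the water channel Aqp4 and Nnmt, nicotinamide methyltransferase. Mt2 was at 3042 and 573 CPM (-2.40) in periportal and 2293 and 148 CPM (-3.91) in high-score cells, and Mt1 at 8248 and 3650.2 CPM (-1.17) against 5426 and 994 CPM (-2.44). Mfsd2a was at 36.8 and 104 CPM (1.39) in periportal and 16.9 and 18.1 CPM (0.08) in high-score cells. With the chow cuts used in both libraries the differences were -2.50 for Rnase4, -2.48 for Spp1 and 1.99 for Mt2.

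**Figure D4:**
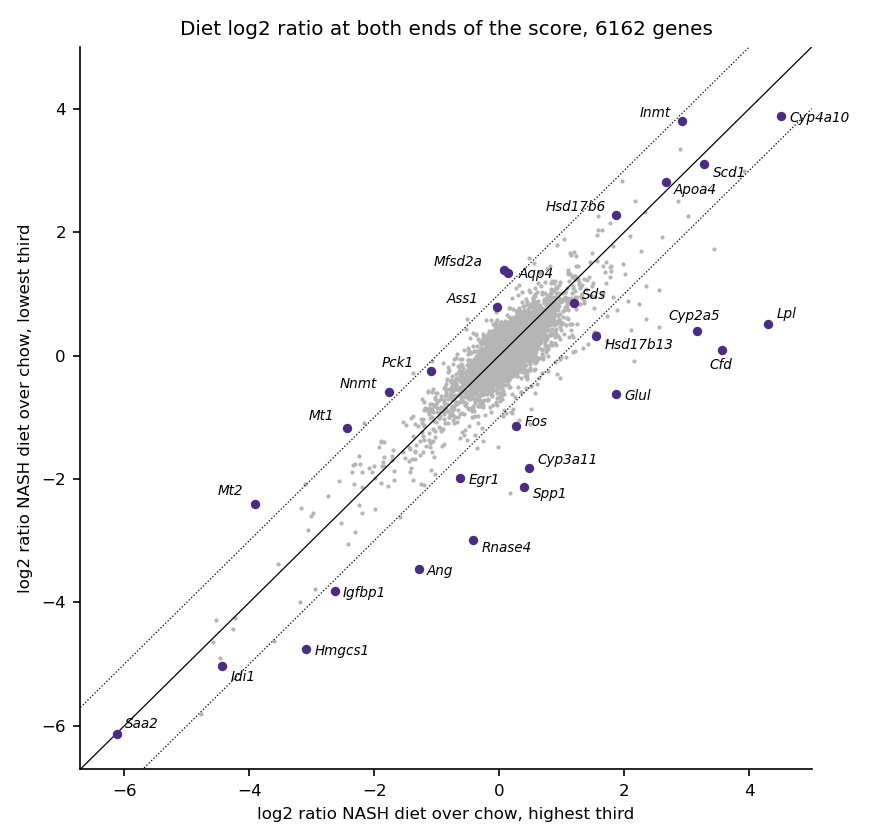
Log2 ratio of the NASH diet over chow in high-score (x axis) and periportal cells (y axis) for 6162 genes, with the line of equality solid and a difference of 1 dotted. Rnase4, Ang, Spp1 and Cyp3a11 lie below the dotted lines and Mt1, Mt2 and Mfsd2a above, while Saa2 and Scd1 lie near equality.

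The gap of periportal genes between periportal and high-score cells depended on the cells taken. The median log2 ratio of periportal over high-score cells for the 20 genes outside the rule was 1.34 on chow and 1.49 on the NASH diet, and 1.72 there with the chow cuts. Without the 5% of cells with most UMIs it was 1.26 on chow and 1.22 on the NASH diet, and with at most 20% mitochondrial UMIs it was 2.57 on the NASH diet and lower than 1.26 on chow. The high-score part under that mitochondrial limit began at 0.161 on chow and 0.996 on the NASH diet. For 14 of the 20 the ratio was wider on the NASH diet, for 16 with the chow cuts and for 11 without the 5% of cells with most UMIs, beside 41.9% of all tested genes in the first split. Ass1 was at 0.44 and 1.27, Pck1 at 0.47 and 1.30 and Gldc, of glycine breakdown, at 1.58 and 2.56. Sds was at 5.14 and 4.81, and its diet ratio in high-score cells changed from 1.19 to -0.08 with the chow cuts, so its value there depends on intermediate cells.

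Single cells were compared after each was thinned to 10000 UMIs. Intervals of cell shares are exact binomial over the cells of 1 library, which are not replicates of a diet, so they measure no spread between mice or libraries. Sds was read in 85.5% of chow (82.4% to 88.1%) and 95.5% of NASH diet periportal cells (92.7% to 97.5%), and in 1.96% and 7.07% of high-score cells, whose median depth was 27151 and 26131 UMIs. Unthinned shares were 98.4% and 98.5% in periportal cells. The median cell held 2 and 3 Sds UMIs, and the highest cell 15 and 41. Ass1 had a median of 7 on chow and 12 on the NASH diet, with the middle 80% of cells from 4 to 16 and from 6 to 22. Apoa4 had a median of 1 and 16, Scd1 of 8 and 103, and Acaa1b of 0 and 7, and Apoa4 was read in 74.8% and 98.8% of cells. Cyp4a10 was read in 9.37% and 67.9% of periportal cells.

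Saa2 had a median of 180.0 UMIs on chow and 1 on the NASH diet, and Rnase4 of 9 and 0, with the 90th percentile at 16 and 4. Spp1 was read in a minority of cells, 38.3% on chow (34.4% to 42.2%) and 10.1% on the NASH diet (7.11% to 13.9%), beside 1.63% and 2.57% of high-score cells, and in 48.8% and 16.7% of periportal cells unthinned. The most Spp1-rich cell gave 7.56% of its UMIs on chow and 16.5% on the NASH diet. Across cells of 1 library, as a description, Saa1 and Saa2 had a Spearman correlation of 0.90 over 619 chow cells and 0.57 over 336 NASH diet cells, Mt1 and Mt2 of 0.80 and 0.10, and Scd1 and Apoa4 of -0.13 and 0.41. The counts behind these correlations differed, with thinned medians on chow and the NASH diet of 180 and 1 for Saa2, 27 and 3.5 for Mt2 and 1 and 16 for Apoa4. Low counts can weaken a rank correlation, so these correlations cannot be compared between libraries. Cells of a library differ in free RNA and quality, and with the mitochondrial share Sds had a correlation of -0.09 on chow and -0.37 on the NASH diet, Mt1 of -0.42 and -0.39, Hamp of -0.23 and -0.24, Saa1 of -0.34 and -0.05 and Saa2 of -0.32 and -0.05. The mitochondrial share was higher and the level of Mt1, Hamp, Saa1 and Saa2 lower in the NASH diet library, and its part in those differences was not tested.

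**Figure D5:**
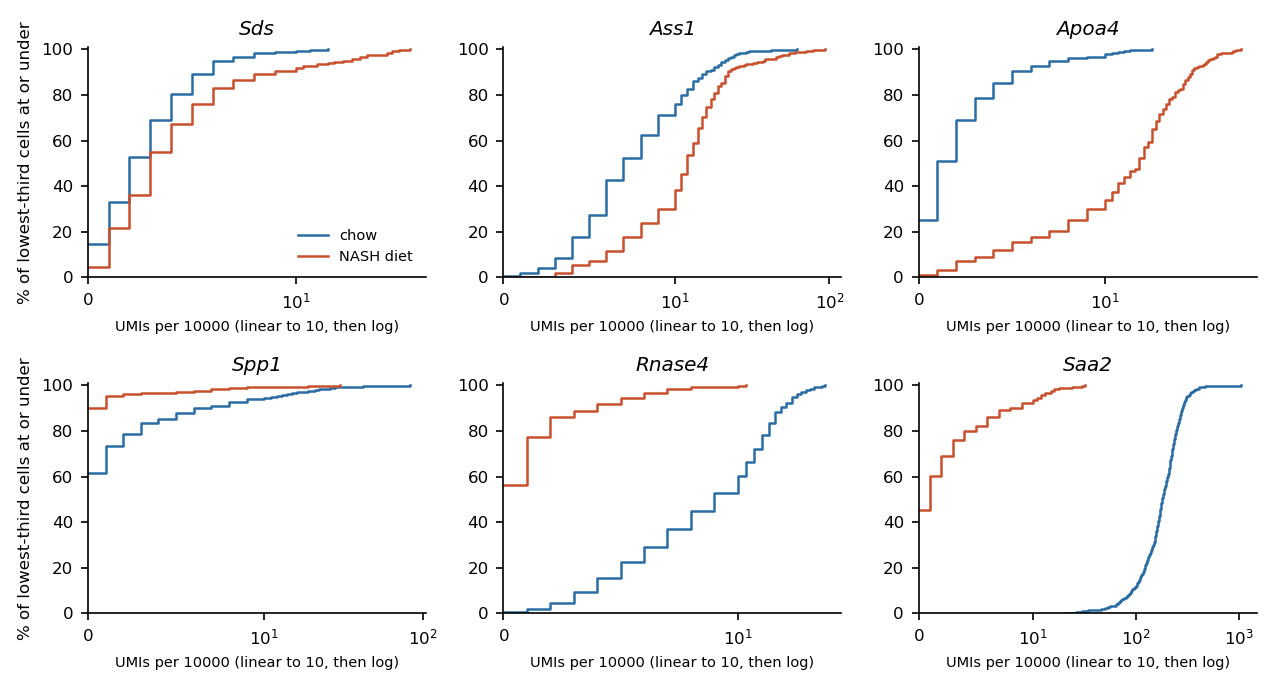
Cumulative share of periportal cells (y axis, %) at or under a number of UMIs per 10000 (x axis, linear to 10 and logarithmic above) for 6 genes on chow (blue) and the NASH diet (red). The Saa2 curves hardly overlap, with medians of 180.0 and 1 UMIs, Apoa4 has medians of 1 and 16, while most cells of both libraries hold no Spp1.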

How the data were processed

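The values used were raw UMI counts, as deposited by the authors for each library on its own, with no normalization. Cell Ranger 3.1.0, Seurat and build mm10 are named in the submitters' processing notes, while the file headers record software 3.0.2. The merged matrix was not used. The members and gene lists were chosen with earlier results of these data known. UMIs were summed per library and score part and divided by the total over all 31053 genes (CPM). Intervals at 95% are exact Poisson for levels and exact binomial for shares of cells. Log2 ratios add 5 CPM, genes with a mean of 10 CPM were tested, and a gene was called past the fold at 1. A gene could reach that mean through 1 library alone, which sets its direction. Cd36, Usp2 and Hamp2 did so through the NASH diet, and Sqle, Saa3 and Igfbp1 through chow. No p-value was computed, since there is 1 library per diet. Mitochondrial genes stayed in the totals, and no doublets were removed. Named genes were the 10 highest and 10 lowest diet log2 ratios (mitochondrial and rule genes aside), the 2 highest and 2 lowest of each list, all periportal list genes, the 5 largest and 5 smallest differences between score parts, and the 10 most periportal genes. Malat1, Glul, Ang, Alas2, Tm4sf4, Sox9, Epcam, Krt19, Krt7, Cd24a, Otc, Ppara, Ehhadh, Fabp1, Cpt1a, Fgf21, Pdk4, Hsd17b11, Fitm2, Srebf2, Hp, Hpx, Fga, Hnf4a, Fos and Cyp4a31 fall outside this rule and were named after their values were seen. Some genes the rule names are not reported here. Gene positions come from GENCODE M21 (GRCm38) and promoters from RefSeq. On simulated counts the same steps recovered 198 of 200 changed genes among 5885 in the periportal diet comparison, with 0 false calls. Those counts were drawn from the periportal chow profile with counting error only, and every planted change was larger than the fold. The simulation held no variation between cells, mice or libraries, so it gives no error rate for the diet comparison. Python 3.11.15, numpy 2.4.6, scipy 1.17.1 and pandas 2.3.3 were used. The alternatives varied the UMI and mitochondrial limits, the cut, the score genes, thinning, scaling, the pseudocount, the filter and the cells.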

Additional observations from a re-analysis of the deposited data

How the results depend on the processing

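Over 15 other settings listed at the start and 5 chosen after seeing the data (an exact 3-way split, a score denominator of at least 20, no barcodes found in both libraries, no cells with 3 or more UMIs of endothelial, Kupffer, other leukocyte or mesenchymal markers, and, for 1 count, a level of 10 CPM at both ends), 143 of 153 counts stayed within 1.5 times and 10 did not. Of 6479 single-gene log2 ratios 1454 left the counting interval of the reported value, as did 41 of 342 list medians, and 0 of either past the fold changed sign. Genes at 10 CPM or more at both ends gave 44 whose diet log2 ratio differed between score parts. With a pseudocount of 20 CPM the genes higher on the NASH diet numbered 50, those whose diet log2 ratio differed between score parts 37, those higher in periportal than high-score cells 39 on chow and 56 on the NASH diet, and the higher fatty acid oxidation genes 5. With at most 20% mitochondrial UMIs these were 347, 221, 134 on the NASH diet and 14. Only 70 NASH diet periportal cells were left, beside 416 on chow. The high-score part then began at 0.161 on chow and 0.996 on the NASH diet, so counts that use it set unlike parts of the score side by side. The cause of the other changes was not tested. Of 97 named genes past the fold, 97 kept their direction in every one of these settings. Leaving out all markers of 6 other cell types at 3 UMIs kept 15.4% of chow and 16.4% of NASH diet hepatocytes, since Spp1, Tm4sf4, Sox9 and Alas2 were read in hepatocytes, and was not run further. No paired analysis was possible because each diet is 1 library, and for the same reason no replicate could be left out. Depth limits genes under 10 CPM, where 3 UMIs or fewer were read on chow for Lpl and Cyp2a5.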
